A study of Mus musculus with 4 samples.

Results

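The genes that add, copy, read and remove DNA methylation were followed in GC-1 cells that carried a TET1 plasmid or its control. The rows of 9 genes were taken from the table by gene name, out of 55385 genes in all. They were the TET oxidases Tet1, Tet2 and Tet3, the DNA methyltransferases Dnmt1, Dnmt3a and Dnmt3b, the hemimethylation reader Uhrf1, the O-GlcNAc transferase Ogt and the methyl-CpG reader Mbd2. GC-1 is an immortalised mouse line named by its labels as spermatogenic cells. Cells of the control group received the MYC plasmid, although their treatment label reads untreated, and cells of the overexpression group received the MYC-TET1 plasmid. Both were transfected transiently with a lipid reagent and collected at 24 h or 36 h, so the part of the cells that took up a plasmid was not known. Total RNA was sequenced from 1 library for each of the 4 conditions, called MYC 24 h, MYC-TET1 24 h, MYC 36 h and MYC-TET1 36 h below. The labels do not say which promoter drove the plasmid.

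DNA methylation is the addition of a methyl group to cytosine, in mammals mostly where C is followed by G (a CpG). DNMT3A and DNMT3B place new marks, while UHRF1 recognises the half-methylated DNA that replication leaves and brings DNMT1 to copy the mark to the new strand. The TET enzymes oxidise 5-methylcytosine to 5-hydroxymethylcytosine and further, which opens the way to an unmodified cytosine through base excision repair or through loss at replication. OGT binds TET proteins and attaches N-acetylglucosamine to many nuclear proteins, and MBD2 reads methylated CpG and belongs to a NuRD deacetylase complex. In the precursors of male germ cells these enzymes erase and rebuild methylation before meiosis.

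CpG dinucleotides in the promoters of these genes are themselves possible substrates of the enzymes. RefSeq promoter sequences (GRCm38.p6) were matched to 8 of the 9 genes, all but Mbd2, with 14 windows of 250 bases upstream of a start site. These windows held 2 to 51 CpG, and 13 of the 14 held more than the median of 6 over 32851 windows of 27025 genes. Sequences are shown for Tet1 and Tet3, whose levels differed most between libraries, for Tet2, which had the most CpG, and for Uhrf1, whose level differed least. They run 5′ to 3′ on the strand of the gene, and capitals mark each CpG, searched as the letters CG, which read the same on both strands.
Tet1 promoter, chr10:62887325-62887412, minus strand: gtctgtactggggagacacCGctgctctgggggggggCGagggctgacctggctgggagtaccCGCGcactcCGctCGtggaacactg
Tet2 promoter, chr3:133544391-133544640, minus strand: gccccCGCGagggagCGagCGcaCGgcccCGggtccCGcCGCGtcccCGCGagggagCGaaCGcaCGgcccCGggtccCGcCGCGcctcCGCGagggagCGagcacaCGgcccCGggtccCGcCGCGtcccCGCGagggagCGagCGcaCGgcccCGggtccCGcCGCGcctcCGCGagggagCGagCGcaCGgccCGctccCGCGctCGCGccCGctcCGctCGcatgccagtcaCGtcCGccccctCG
Tet3 promoter, chr6:83441679-83441928, minus strand: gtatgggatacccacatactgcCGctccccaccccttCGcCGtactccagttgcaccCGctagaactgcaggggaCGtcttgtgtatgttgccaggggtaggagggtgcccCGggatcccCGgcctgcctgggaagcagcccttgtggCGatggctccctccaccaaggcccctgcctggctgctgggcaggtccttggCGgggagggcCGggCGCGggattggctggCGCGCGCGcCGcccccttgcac
Uhrf1 promoter, chr17:56304063-56304312, plus strand: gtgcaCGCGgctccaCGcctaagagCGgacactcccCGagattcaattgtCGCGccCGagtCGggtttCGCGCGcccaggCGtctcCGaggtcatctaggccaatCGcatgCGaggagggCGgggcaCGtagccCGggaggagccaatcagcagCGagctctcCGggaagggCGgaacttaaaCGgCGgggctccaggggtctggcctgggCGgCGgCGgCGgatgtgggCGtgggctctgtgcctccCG
The Tet1 stretch is the 88 bases next to the start site and held 6 CpG, without the rest of its window, which lies in an annotated UTR of another transcript, and the other three are whole windows. The Tet2 window held 51 CpG, a number reached by 0.0670% of all windows. The Uhrf1 window shown held 30, reached by 5.94% of windows, and another Uhrf1 window held 10, reached by 37.8%, while the Tet3 window held 17, reached by 23.5%. Methylation at these positions was not among the values used here.

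The libraries held 60611877 to 72547105 counts, and 19797 to 20824 genes had at least 1 count. Defining transcripts of spermatogonia were mostly absent. Only Etv5 and Uchl1 of 16 spermatogonial markers reached an FPKM of 1, and Zbtb16 and Dazl were among 9 markers with a count of 0 in every library. The summed FPKM of these 16 markers ran from 14.4 to 16.5 over the libraries. Of 10 fibroblast and peritubular markers, 7 reached an FPKM of 1, and their sum ran from 490 to 537. FPKM counts fragments per length of transcript and per depth of library, so genes of different length may be compared where the length used is right. For Tet1 with the plasmid, the length of the plasmid transcript was not known. Its FPKM in the MYC-TET1 libraries uses a length set for the gene, as do the sums, ratios and percentiles built on it. With 1 library per condition a pair of libraries allowed no test, and intervals given for a ratio of counts cover counting error only.

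Tet1, on chromosome 10 (chr10:62804570-62908996, minus strand), is the gene the plasmid was meant to raise. Its FPKM was 0.0526 in MYC 24 h, 40.2 in MYC-TET1 24 h, 0.0562 in MYC 36 h and 19.6 in MYC-TET1 36 h. The corresponding counts were 61, 49451, 59 and 24467. Both libraries with the plasmid lay far above both control libraries, and the ranges did not overlap. The table gives 1 value for the gene, so that transcripts of the plasmid and of the chromosomal gene cannot be told apart, nor can more transfected cells be told apart from more RNA in each.

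On the log2 scale of FPKM plus 0.1, Tet1 was 8.04 higher with the plasmid at 24 h and 6.98 higher at 36 h. The ratio of counts was 9.57 on the log2 scale at 24 h (95% interval 9.20 to 9.95) and 8.44 at 36 h (8.07 to 8.83). Among the 12254 genes with an FPKM of at least 1 in any library, the gene ranked at percentile 88.1 in MYC-TET1 24 h and 76.55 in MYC-TET1 36 h. Between the MYC-TET1 libraries its level was 2.05-fold lower at 36 h than at 24 h, a log2 difference of −1.03. The counting interval of that difference ran from −1.06 to −1.01. Between the MYC libraries the log2 ratio of counts was 0.09, with a wide interval of −0.45 to 0.63 from 61 and 59 counts.

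Plasmid and time were also fitted together on the counts of all 17119 genes that passed the filter, with edgeR's quasi-likelihood test and Benjamini-Hochberg adjustment. In this additive fit each plasmid group holds 2 libraries, and the disagreement between the 2 times stands for the error. Tet1 was 9.03 higher on the log2 scale with the plasmid (SE 0.318, adjusted p = 0.0322, higher at 2 of 2 times). It was the only one of the 9 genes called by plasmid, beside 0.0467% of all genes tested, and the only gene of the table called as higher (0.00584% of genes), beside 7 called as lower (0.0409%). A fit on 3 libraries has no residual degree of freedom with both terms, so wherever a library was left out the other factor was dropped from the model as well. The call was lost in such plasmid-only fits without MYC 24 h (adjusted p = 0.121) and without MYC 36 h (0.160), with no filter on low counts (0.108), without time in the fit (0.0561) and in limma fits on log2 FPKM (0.596 and 0.536), although the log2 difference was at least 4.79 throughout. It was held in the other 5 alternatives, among them the plasmid-only fits without either MYC-TET1 library.

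Genes were ranked by how far the plasmid groups stood apart in the direction of Tet1. Separation was measured as the lower of the MYC-TET1 values divided by the higher of the MYC values, each FPKM plus 0.1, over 4 libraries and 12254 genes. The ratio was 126 for Tet1, and 30 genes in all reached 2, beside 34 genes for the mirrored ratio, with MYC above MYC-TET1. The next were 2 small nucleolar RNA genes, Gm22357 with 26.5 and Snora7a with 12.2, followed by the ribosomal RNA gene n-R5s39 with 11.2. Their counts were low, with 45 to 73 for Gm22357 in the MYC-TET1 libraries and 1 in each MYC library. Pagr1b (9.17) and the transcription factor gene Sp6 (9.01) came next. Both had a count of 0 in each MYC library, against 82 and 46 for Pagr1b and 246 and 325 for Sp6 in MYC-TET1 24 h and MYC-TET1 36 h. Tet1 and the 5 genes named here were below an FPKM of 1 in both MYC libraries and entered the ranking only through the MYC-TET1 libraries, where they were high, so the ranking is a description. For genes at 0 in MYC the added 0.1 limits the ratio, and their order below Tet1 depends on it. The ratio does not use the order of the times, and Tet1 was lower at 36 h than at 24 h and Sp6 was not (FPKM 0.802 and 1.05).

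**Figure D1:**
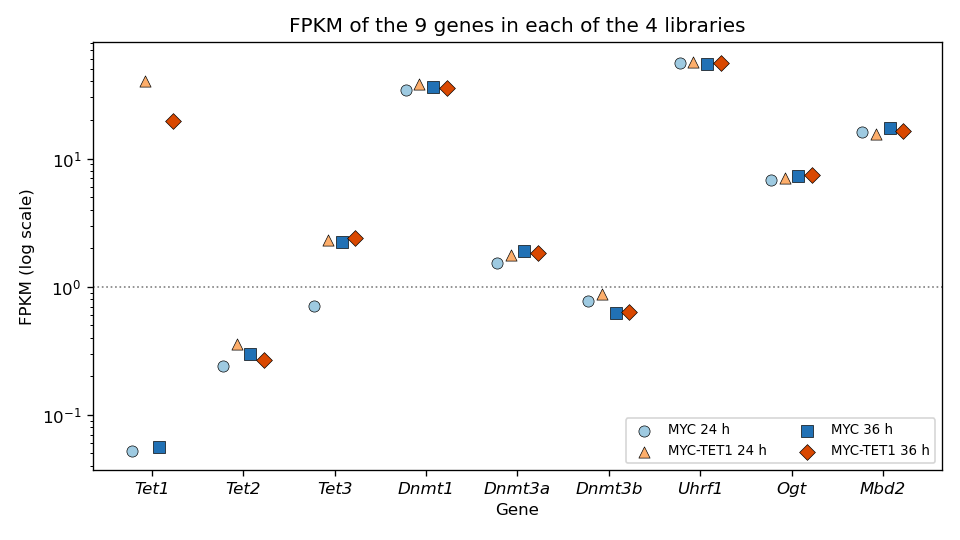
FPKM of each of the 9 genes (log scale) in the 4 libraries, 1 point per library, with a dotted line at an FPKM of 1. Tet1 spans 0.0526 to 40.2 and Tet3 is lowest in MYC 24 h at 0.705, while the points of Uhrf1 lie between 55.0 and 56.9.

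Tet3 (chr6:83362373-83459084, minus strand), the TET gene best known from the oocyte and zygote, was the main TET transcript of the control cells. Its FPKM was 0.705 in MYC 24 h, 2.31 in MYC-TET1 24 h, 2.23 in MYC 36 h and 2.39 in MYC-TET1 36 h. The counts were 876, 3068, 2497 and 3218. One library was low and the other three lay within 1.07-fold of each other. The MYC-TET1 libraries were both above the MYC libraries, but MYC 36 h was only 1.07-fold below the higher of them.

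Because of that library, Tet3 was 2.99-fold higher with the plasmid at 24 h (log2 1.58) and 1.07-fold higher at 36 h (log2 0.09). The same library gave a 2.90-fold higher level at 36 h than at 24 h in MYC cells (log2 1.53), against 1.03-fold in MYC-TET1 cells (log2 0.05). These comparisons at 24 h and between MYC libraries share MYC 24 h and are not separate observations. The 24 h ratio of counts was 1.71 on the log2 scale (95% interval 1.60 to 1.82, or 1.49 to 1.93 with counts divided by 4). A larger difference at 24 h was seen in 1.54% of the genes compared.

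In the additive edgeR fit Tet3 was not called by plasmid (log2 0.90, SE 0.421, adjusted p = 0.955) or by time (log2 0.82, SE 0.420, adjusted p = 0.541). In fits of 1 factor on 3 libraries, the plasmid difference without MYC 24 h was 0.0950 (adjusted p = 0.977) and the time difference −0.0251, and the plasmid difference without MYC 36 h was 1.73 (adjusted p = 0.167). MYC 24 h lay at least 2-fold below every other library in 66 of 12254 genes (0.539%), and the other libraries did so in 58 to 93 genes. The antisense gene B230319C09Rik, which overlaps Tet3 on the other strand, had at most 26 counts, and the library kit does not keep the strand.

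Tet2 (chr3:133463679-133545139, minus strand), often mutated in blood cell disorders, was the lower of the other TET genes. Its FPKM was 0.242 in MYC 24 h, 0.355 in MYC-TET1 24 h, 0.300 in MYC 36 h and 0.268 in MYC-TET1 36 h, from 305, 479, 341 and 368 counts. The groups overlapped, with both 36 h values between the 24 h values. The log2 difference by plasmid was 0.41 at 24 h and −0.12 at 36 h, with counting intervals of 0.34 to 0.77 and −0.37 to 0.07 for the ratio of counts. The gene never reached an FPKM of 1 and was not called by plasmid in the edgeR fit (log2 0.21, SE 0.239, adjusted p = 0.961).

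Summed as a family, TET transcripts were mostly Tet3 in the MYC libraries and mostly Tet1 in the MYC-TET1 libraries. Tet1 made up 5.26% of the summed TET FPKM in MYC 24 h and 2.18% in MYC 36 h, but 93.8% in MYC-TET1 24 h and 88.1% in MYC-TET1 36 h. Tet3 made up 70.6% and 86.2% in the control libraries. The summed TET FPKM was 0.999 and 2.59 in MYC 24 h and MYC 36 h, and 42.9 and 22.3 in the MYC-TET1 libraries. Without Tet1 the sum was 0.947 in MYC 24 h and 2.53 to 2.66 in the other libraries.

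**Figure D2:**
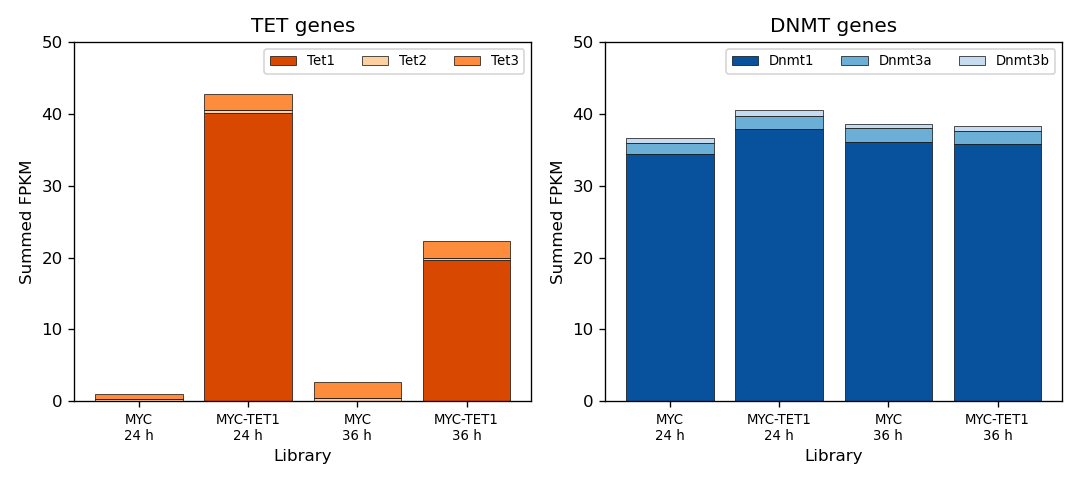
Summed FPKM of the TET genes (left) and of the DNMT genes (right) in each library, stacked by gene, 1 bar per library with no replicates. The TET sum goes from 0.999 to 42.9 at 24 h and from 2.59 to 22.3 at 36 h, while the DNMT sum stays between 36.7 and 40.6.

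Dnmt1 (chr9:20907209-20952979, minus strand), the maintenance methyltransferase, was the main DNMT transcript in every library. Its FPKM was 34.4 in MYC 24 h, 38.0 in MYC-TET1 24 h, 36.1 in MYC 36 h and 35.8 in MYC-TET1 36 h. The highest library was 1.10-fold above the lowest, and the 36 h values lay between the 24 h values. By plasmid the log2 difference was 0.14 at 24 h and −0.01 at 36 h, and the latter turned to 0.01 when FPKM was rescaled to TPM and to 0.001 in scaled counts. The counting interval of the plasmid ratio lay above 0 at 24 h (0.12 to 0.17, or 0.09 to 0.20 with counts divided by 4). At 36 h it held 0 (−0.03 to 0.03). The edgeR fit gave 0.07 by plasmid (SE 0.0545, adjusted p = 0.955) and −0.03 by time (SE 0.0545, adjusted p = 0.865).

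Dnmt3a (chr12:3806007-3914443, plus strand) had an FPKM of 1.54 in MYC 24 h, 1.76 in MYC-TET1 24 h, 1.90 in MYC 36 h and 1.84 in MYC-TET1 36 h. It is the de novo enzyme that sets many of the imprints of the germ line. Both 36 h libraries were above both 24 h libraries, whereas the plasmid groups overlapped. The counting interval of the plasmid ratio lay above 0 at 24 h (0.11 to 0.28, or 0.02 to 0.37 with counts divided by 4). At 36 h it held 0 (−0.12 to 0.05). The edgeR fit gave 0.16 by time (SE 0.104, adjusted p = 0.614) and 0.08 by plasmid (SE 0.104, adjusted p = 0.964).

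Dnmt3b (chr2:153649450-153687730, plus strand), the de novo enzyme of early embryonic cells, had an FPKM of 0.771 in MYC 24 h, 0.881 in MYC-TET1 24 h, 0.623 in MYC 36 h and 0.638 in MYC-TET1 36 h. It went the other way from Dnmt3a, with both 36 h libraries below both 24 h libraries. The counts were 294, 361, 215 and 267. The log2 difference by time was −0.27 in MYC and −0.41 in MYC-TET1 cells, and the fit gave −0.40 (SE 0.187, adjusted p = 0.513). The intervals of the count ratio lay below 0 in both cases (−0.57 to −0.05 and −0.69 to −0.22) and held 0 with counts divided by 4 (−0.85 to 0.21 and −0.93 to 0.02). By plasmid the fit gave 0.13 (SE 0.187, adjusted p = 0.964).

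Dnmt1 made up 93.5% to 93.7% of the summed DNMT FPKM. Dnmt3a made up 4.18% to 4.91% and Dnmt3b 1.61% to 2.17%, and the ratio of Dnmt1 to Dnmt3b ran from 43.1 in MYC-TET1 24 h to 57.95 in MYC 36 h. The summed DNMT FPKM was 36.7 in MYC 24 h, 40.6 in MYC-TET1 24 h, 38.6 in MYC 36 h and 38.3 in MYC-TET1 36 h. The ratio of summed TET to summed DNMT FPKM was 0.0272 and 0.0670 in MYC 24 h and MYC 36 h. With the plasmid it was 1.06 at 24 h and 0.581 at 36 h. Tet1 alone stood at 1.06 times Dnmt1 in MYC-TET1 24 h and at 0.547 times in MYC-TET1 36 h. With the plasmid these ratios rest on the length set for Tet1, and that of the plasmid transcript was not known.

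Uhrf1 (chr17:56303321-56323486, plus strand) had the highest control level of the 9 genes and the narrowest range. Its FPKM was 56.2 in MYC 24 h, 56.9 in MYC-TET1 24 h, 55.0 in MYC 36 h and 55.7 in MYC-TET1 36 h, from 15716 to 19290 counts. The highest library was 1.03-fold above the lowest. The counting intervals of the plasmid ratio ran from −0.01 to 0.05 at 24 h and from −0.01 to 0.06 at 36 h on the log2 scale. The fit gave 0.03 by plasmid (SE 0.0416, adjusted p = 0.970) and −0.05 by time (SE 0.0416, adjusted p = 0.673). The ratio of Uhrf1 to its partner Dnmt1 was 1.498 to 1.632 in FPKM over the libraries.

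Ogt (chrX:101640060-101682940, plus strand) had an FPKM of 6.84 in MYC 24 h, 6.99 in MYC-TET1 24 h, 7.29 in MYC 36 h and 7.50 in MYC-TET1 36 h. Both 36 h libraries were higher than both 24 h libraries, and at each time the MYC-TET1 value was slightly above the MYC value, by log2 0.03 and 0.04. Both counting intervals of the plasmid ratio held 0 (−0.03 to 0.09 and −0.01 to 0.11). The fit gave 0.04 by plasmid (SE 0.0662, adjusted p = 0.965) and 0.07 by time (SE 0.0662, adjusted p = 0.711).

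Mbd2 (chr18:70568189-70626131, plus strand) had an FPKM of 15.98 in MYC 24 h, 15.5 in MYC-TET1 24 h, 17.4 in MYC 36 h and 16.4 in MYC-TET1 36 h. It was the only one of the other 8 genes to be lower with the plasmid at both times, by log2 −0.04 and −0.09, and the groups overlapped. The counting interval of the plasmid ratio held 0 at 24 h (−0.11 to 0.02). At 36 h it lay below 0 (−0.14 to −0.02) and held 0 with counts divided by 4 (−0.21 to 0.05). The fit gave −0.06 by plasmid (SE 0.0694, adjusted p = 0.962) and 0.08 by time (SE 0.0694, adjusted p = 0.711).

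**Figure D3:**
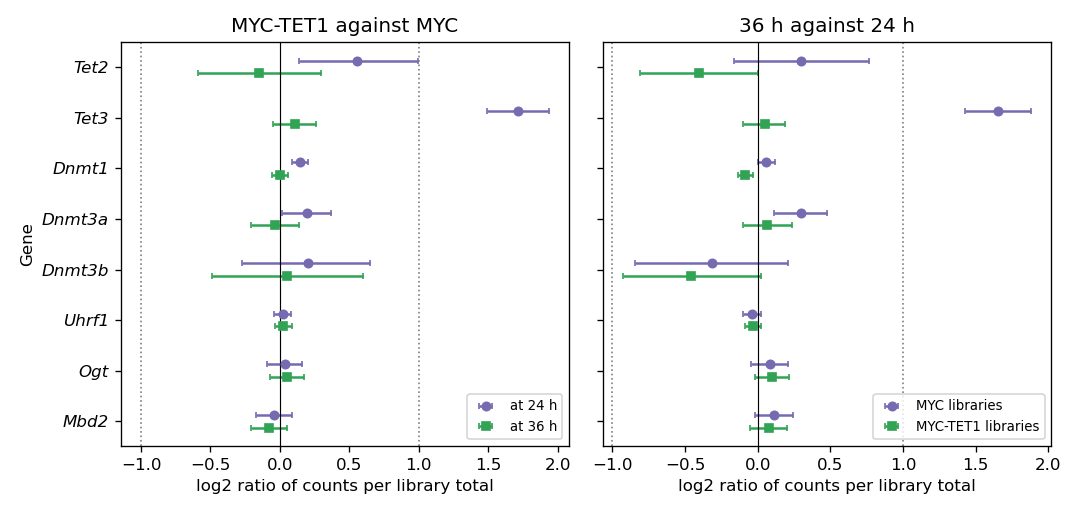
log2 ratio of counts per library total for the 8 genes other than Tet1, by plasmid (left) and by time (right), with bars for the 95% counting interval from counts divided by 4 and dotted lines at 2-fold. Tet3 stands at 1.71 at 24 h and 1.65 between MYC libraries, and no other point passes 2-fold.

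Considering the 8 genes other than Tet1 together, 1 (Tet3) differed at least 2-fold by plasmid at 24 h, where 3.22% of all 11842 genes compared did so, and 0 at 36 h, where 3.75% of 11959 did. With a pseudocount of 1, Tet3 was below 2-fold at 24 h (log2 0.956) and between MYC libraries (log2 0.922). Higher values with the plasmid were seen in 7 of the 8 at 24 h and in 4 of the 8 at 36 h. Their median log2 difference was 0.16 and 0.003, beside −0.007 and −0.003 for all genes compared, a set that leaves out Tet2 and Dnmt3b for their low FPKM. MYC 24 h, the control of every 24 h difference, was the lowest library for Tet2, Tet3, Dnmt1, Dnmt3a and Ogt. Counting intervals of the plasmid ratio excluded 0 for 4 of the 8 at 24 h and for 2 at 36 h (4 and 0 with counts divided by 4). By time, 1 (Tet3) differed at least 2-fold between MYC libraries, beside 4.72% of all genes, and 0 between MYC-TET1 libraries, beside 3.9%, where Tet1 itself passed 2-fold. With a pseudocount of 1, Tet1 stood just under 2-fold between MYC-TET1 libraries (log2 −0.9995). The edgeR fit called 0 of the 9 genes by time, beside 0.0993% of all genes, and only Tet1 had an unadjusted p under 0.05, beside 11.2% of all genes (log2 −0.75, SE 0.258, adjusted p = 0.435). That value was −2.05 without MYC 24 h, −0.06 without MYC 36 h, −8.49 without MYC-TET1 36 h and 7.51 without MYC-TET1 24 h, in fits that also left plasmid out of the model, so that these values hold part of the plasmid difference. DESeq2 also called 0 of the 9 by time, where it called 405 of all genes.

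By plasmid, both MYC-TET1 libraries lay above both MYC libraries for 2 of the 9 genes, Tet1 and Tet3, and below for 0, and 7 overlapped. Of all 12254 genes, 28.2% did not overlap by plasmid (12.6% above and 15.7% below). All of the 9 but Tet2 and Dnmt3b belong to that set, and 2 of these 7 is near the background. By time, both 36 h libraries lay above both 24 h libraries for Dnmt3a, Ogt and Mbd2 and below for Dnmt3b and Uhrf1, that is 5 of 9. Of all 12254 genes 48.6% did not overlap by time (27.9% above and 20.8% below), and 4 of the 7 genes in that set did not.

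Apart from Tet1, the most abundant of the genes kept 1 order of FPKM in every library. Uhrf1 (55.0 to 56.9 over all 4 libraries) was followed by Dnmt1 (34.4 to 38.0), Mbd2 (15.5 to 17.4) and Ogt (6.84 to 7.50), and these ranges did not overlap. Tet3, Dnmt3a and Dnmt3b did not keep their places, since Tet3 was below both Dnmt3a and Dnmt3b in MYC 24 h and above both in the other three libraries. Tet2 came next, and Tet1 was the lowest in MYC cells. With an FPKM of 40.2, Tet1 passed Dnmt1 in MYC-TET1 24 h, and with 19.6 it lay between Dnmt1 and Mbd2 in MYC-TET1 36 h.

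The wider pathway was described by lists of partners and target classes, 137 further genes in all, of which 92 reached an FPKM of 1 in at least 1 library. The edgeR fit tested 102 of them and called 0 by plasmid and 0 by time, where 0.0467% and 0.0993% of all genes were called, so that a count of 0 is no more than the background gives. By plasmid 9 of the 102 had an unadjusted p under 0.05 in this fit, beside 669 of all 17119 genes tested (3.91%). The share was larger in the lists, and this difference was not tested. Of the 92 genes, 83 stayed within 1.5-fold at both times and 88 within 2-fold, that is 90.2% and 95.7%, beside 89.2% and 95.5% of the 11547 genes compared at both times. At single times 7.03% (24 h) and 8.52% (36 h) of all genes compared differed at least 1.5-fold. At 24 h 0 were at least 2-fold higher and 2 at least 2-fold lower with the plasmid, and at 36 h 2 were higher and 1 was lower. The median log2 difference was −0.03 at 24 h and 0.02 at 36 h.

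Maintenance partners were well represented, with 12 of 12 at an FPKM of 1 in every library. Pcna, the replication clamp that holds DNMT1 at the fork, was highest, with 191 in MYC 24 h, 188 in MYC-TET1 24 h, 168 in MYC 36 h and 178 in MYC-TET1 36 h. Zfp57, a zinc finger protein that keeps methylation at imprinted regions, had an FPKM of 3.63 in MYC 24 h, 1.81 in MYC-TET1 24 h, 9.13 in MYC 36 h and 2.72 in MYC-TET1 36 h. It was 1.95-fold and 3.27-fold lower with the plasmid, below MYC at 2 of 2 times, but was not called (edgeR log2 −1.36, SE 0.215, adjusted p = 0.554).

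Of the 19 genes of active demethylation and base excision repair, which take over from the TET products, 17 reached an FPKM of 1 in every library and 0 differed 2-fold by plasmid. Apex1, the endonuclease that cuts at abasic sites, was highest, with 43.1 in MYC 24 h, 39.1 in MYC-TET1 24 h, 44.6 in MYC 36 h and 47.4 in MYC-TET1 36 h. It overlaps Pip4p1 on the other strand, which had 2447 to 3734 counts.

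Among the 9 other methyl-CpG readers, 7 reached an FPKM of 1, and Mbd3 was highest at 57.5 to 67.8. Zbtb4, a zinc finger reader, had an FPKM of 3.14 in MYC 24 h, 1.13 in MYC-TET1 24 h, 4.68 in MYC 36 h and 4.65 in MYC-TET1 36 h, so that it was 2.64-fold lower with the plasmid at 24 h and 1.01-fold lower at 36 h. All 12 NuRD genes reached an FPKM of 1 in at least 1 library, with Mta2 highest at 75.8 to 80.1. Gatad2b, a scaffold subunit that joins the MBD proteins to the remodeller, had an FPKM of 1.49 in MYC 24 h, 2.96 in MYC-TET1 24 h, 0.873 in MYC 36 h and 2.01 in MYC-TET1 36 h. It was 1.93-fold and 2.17-fold higher with the plasmid and was not called (edgeR log2 1.10, SE 0.113, adjusted p = 0.244).

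Of the 11 OGT partners and O-GlcNAc genes that the deposited file lists, 11 reached an FPKM of 1, with Gfpt2 of the hexosamine pathway highest at 54.0 to 57.1 and 0 at 2-fold. The 13 genes of 2-oxoglutarate metabolism, which supplies the TET cosubstrate, all reached it too, with Got1 highest at 85.6 to 104 and 0 at 2-fold. Of 12 genes of the S-adenosylmethionine cycle, which supplies the methyl group, 9 did, with Shmt2 highest at 157 to 175 and 0 at 2-fold.

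Of 12 CXXC and TET-binding factors 8 reached an FPKM of 1 and 0 differed 2-fold by plasmid. Wt1, a factor that recruits TET2, was highest, with 14.0 in MYC 24 h, 13.2 in MYC-TET1 24 h, 25.6 in MYC 36 h and 13.4 in MYC-TET1 36 h. One library was high, MYC 36 h. Wt1 is also 1 of 8 Sertoli cell markers, of which 3 reached an FPKM of 1 and whose sum, Wt1 included, ran from 23.7 to 37.7. Gata4 (8.31 against 7.34 to 7.95) and Rhox5 (0.771 against 0.219 to 0.605) were also highest in MYC 36 h, Sox9, Amh and Dhh were not, and Cldn11 and Fshr had a count of 0 in every library. All libraries came from 1 cell line and not from testis tissue, and the cause of the Wt1 level in MYC 36 h was not tested. Of 3 further methyltransferase family genes only Trdmt1, a tRNA methyltransferase, reached an FPKM of 1, with 1.26 to 1.62.

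Germline genes that methylation silences were low in all libraries. Of 16 germline genes known to be held off by promoter methylation in somatic cells, 0 reached an FPKM of 1 and 13 had a count of 0 in every library. Gtsf1 was the highest of them, with an FPKM of 0.117 to 0.449. Of 20 imprinted genes 4 reached an FPKM of 1, with Gnas highest at 85.5 to 92.8. Peg3, a paternally expressed zinc finger gene, had an FPKM of 7.28 in MYC 24 h, 0.715 in MYC-TET1 24 h, 0.930 in MYC 36 h and 6.48 in MYC-TET1 36 h, so that it was lower with the plasmid at 24 h (log2 −3.18) and higher at 36 h (log2 2.68), and the groups overlapped.

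**Figure D4:**
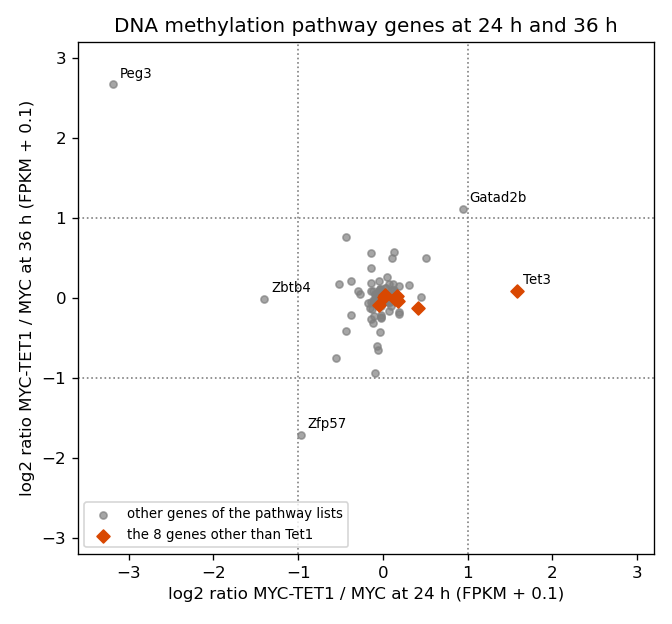
log2 ratio of FPKM plus 0.1 by plasmid at 24 h (horizontal) against 36 h (vertical) for the 92 pathway genes that reached an FPKM of 1 (grey) and the 8 genes other than Tet1 (red), with dotted lines at 2-fold. Tet3 lies apart along the horizontal axis at 1.58, and Peg3 lies at −3.18 and 2.68.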

How the data were processed

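RNA of GC-1 cells was prepared with the TruSeq RNA kit and sequenced, with 1 library per condition. The authors deposited 1 table with whole-number read counts, not normalized, and FPKM values for each gene. The labels name Bowtie 0.12.2 and the builds mm8 and mm9 in the submitters' processing notes, with no role; the counting tool is not given in the sources used here. Coordinates are those of the table, and 99.6% of its gene identifiers were found in GENCODE M21 (GRCm38), 94.2% of these with the same coordinates.

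Each column was assigned to a library by its name. Pairs of libraries were compared by log2(FPKM + 0.1), at a 2-fold threshold with no test, and totals over all genes took those where either library had FPKM 1 or more. Ratios of counts carry exact Clopper-Pearson 95% intervals. Counts of 4 and 8 were over-represented, so intervals were also computed after division by 4, chosen after seeing the data. Counts were fitted with edgeR 4.0.16 (R 4.3.3; TMM, filterByExpr, quasi-likelihood, plasmid and time additive, 1 residual degree of freedom), with adjustment over 17119 genes. The SE is the log2 difference divided by the square root of F. DESeq2 1.42.0, limma 3.58.1 and other settings were alternatives. Tested on simulated data for the plasmid comparison with 17031 genes, the fit called 98 of 100 genes with a 4-fold and 100 of 100 with a 16-fold change, with 15 false calls. The simulation gave every gene the same spread (dispersion 0.0530) and changed only genes with high counts. Real genes may differ in spread, so these numbers do not say how many real changes the fit would find. No label says that the libraries came from separate cultures, so p-values measure only the spread between these libraries.

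The genes and lists were chosen with earlier results of these data known. All 9 genes were named, and from each list the gene with the highest mean FPKM and those 2-fold different by plasmid. Mgea5, an older name of Oga, was not in the table. The printed promoters were chosen after the values were seen. Of the markers, 0 of 8 for spermatocytes and spermatids, 3 of 8 for Sertoli cells, 0 of 6 for Leydig cells and 3 of 5 for leukocytes reached an FPKM of 1.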

Additional observations from a re-analysis of the deposited data

Results flagged for a closer look

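For 3 of the 9 genes, MYC-TET1 was above MYC at 24 h and below it at 36 h. The log2 difference at 24 h minus that at 36 h was 0.531 for Tet2, 0.152 for Dnmt1 and 0.225 for Dnmt3a. Each time point has 1 library per plasmid, so these opposite directions were not tested, and that of Dnmt1 at 36 h turned positive under TPM and under scaled counts.

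Among the other pathway genes that were named, the same difference was 0.0470 for Gfpt2 and, with the lower value at 24 h, −0.116 for Pcna, −0.227 for Apex1, −0.0885 for Mta2, −0.147 for Got1 and −5.86 for Peg3. None of these was tested.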

How the results depend on the processing

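Of the 9 genes 1 was called by plasmid (Tet1), and 0 were called with no filter on low counts, in limma fits with either pseudocount and without time in the model, while DESeq2, RLE and library totals called 1. The limma fits held 7 of the 9 genes, without Tet2 and Dnmt3b. Fits without 1 library also dropped the other factor, since 3 libraries leave no residual degree of freedom with both, and gave 0 to 1. Over all genes 8 were called by plasmid (669 at an unadjusted p under 0.05), against 2 with no filter, 111 by DESeq2 and 0 by limma with a pseudocount of 0.1 (672 unadjusted) or of 1 (667 unadjusted), and 0 to 15 with 1 library left out (0 without MYC 24 h, 805 unadjusted, or MYC 36 h, 602 unadjusted, 15 without MYC-TET1 24 h and 2 without MYC-TET1 36 h). By time 17 genes were called, against 0 with no filter (1849 unadjusted), 405 by DESeq2, 0 by limma with either pseudocount (1399 and 1521 unadjusted) and 15 to 139 with 1 library left out (63 without MYC 36 h, 139 without MYC-TET1 36 h). Time served as the replicate block of the plasmid comparison, and with no replicate block 1 gene of all and 0 of the 9 were called by plasmid (488 unadjusted), with an adjusted p of 0.0561 for Tet1, and 75 of all by time. The cause of these shifts was not tested. Counts of genes at least 2-fold different were 381 and 448 by plasmid at 24 h and 36 h, 565 between MYC and 464 between MYC-TET1 libraries. They were 201, 245, 279 and 237 with a pseudocount of 1, 1810, 2178, 2281 and 2014 with no filter, 99, 120, 158 and 147 at a mean FPKM of at least 5, 946, 1114, 1248 and 1081 in TPM, and 833, 1019, 1291 and 1091 at 1.5-fold. Tet3 was under 2-fold at 24 h with a pseudocount of 1 (log2 0.956). Tet1 was 5.29 to 9.33 higher at 24 h and 4.29 to 8.21 higher at 36 h on the log2 scale over pseudocounts of 1 and 0.01. Directions of uncalled log2 differences turned when a library and the other factor were left out together, and these changes cannot be told apart. By plasmid the ranges were −0.0559 (without MYC 24 h) to 0.222 for Dnmt3a, −0.0174 (without MYC-TET1 24 h) to 0.409 for Tet2, −0.124 (without MYC-TET1 24 h, and −0.0157 without MYC 36 h) to 0.358 for Dnmt3b and −0.00597 (without MYC-TET1 24 h, and −0.00196 without MYC 36 h) to 0.0538 for Uhrf1. By time they were −0.0251 (without MYC 24 h) to 1.69 for Tet3 and, with the highest value without MYC-TET1 24 h, −8.49 to 7.51 for Tet1, −0.346 to 0.210 for Tet2 and −0.104 to 0.0413 for Dnmt1. Removing 1 library left a group with 1 sample, assumed to vary like the others, and values by time then hold part of the plasmid difference, and the reverse. Depth limits Tet2, Dnmt3b and the control Tet1 most, with counts of 59 to 479.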
